A study of Rattus norvegicus with 25 samples.

Results

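The dual-specificity MAP kinase phosphatases examined here are the products of 10 genes, Dusp1, Dusp2, Dusp4, Dusp5, Dusp6, Dusp7, Dusp8, Dusp10, Dusp14 and Dusp16. They were taken by symbol from a table of 28909 genes, and all 10 passed the filter on low counts that left 14142 genes for testing. The table covered the striatum of 25 female Sprague Dawley rats lesioned with 6-OHDA, a toxin that destroys dopamine neurons. All animals received levodopa at 6 mg/kg QD, given as levodopa/benserazide per the series title. The arms were levodopa alone (n = 5), that levodopa dose plus 7.5 mg/kg trapidil BID (n = 10) and that dose plus 15 mg/kg trapidil BID (n = 10). Trapidil is a vasodilator known to oppose the action of platelet-derived growth factor and to inhibit phosphodiesterases. Dosing ran for 14 days and the striatum of the lesioned side was taken on day 15, at 1 hour relative to administration, the order of the 2 events being unstated. Every arm carried both the lesion and levodopa, so the comparisons concern added trapidil only, and rats without lesion or without levodopa were not analysed here.

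MAP kinases (ERK, JNK and p38) are switched on by phosphorylation of a threonine and a tyrosine in the same loop, and the phosphatases of this family remove both phosphates. Many of their genes are themselves switched on by MAP kinase activity, which makes them feedback inhibitors and markers of recent signalling. In the dopamine-depleted striatum, levodopa is known to activate ERK in spiny projection neurons that carry the dopamine D1 receptor. Dusp1, Dusp2, Dusp4 and Dusp5 encode inducible enzymes of the nucleus. Dusp6 and Dusp7 encode cytoplasmic enzymes that prefer ERK. Dusp8, Dusp10 and Dusp16 encode enzymes that prefer JNK and p38, and Dusp14 encodes a small enzyme of the family that lacks the MAP kinase binding domain of the others.

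The proximal promoters of the 4 genes with the largest differences between arms are shown because they differ in which sites for signal-driven transcription factors they hold, if any. The sequences are RefSeq's on the GRCr8 assembly, which is not the Rnor_6.0 build of the counts, and 9 of the 10 genes had an entry. Each line gives the 180 bases before the annotated gene start, 5′ to 3′ on the gene's strand. Capitals mark a cAMP response element (CRE, TGACGTCA), its shorter core (TGACG, which is also part of every CRE) or a CArG box, the site of serum response factor, each searched on both strands over the 250 bases before the start.
Dusp1: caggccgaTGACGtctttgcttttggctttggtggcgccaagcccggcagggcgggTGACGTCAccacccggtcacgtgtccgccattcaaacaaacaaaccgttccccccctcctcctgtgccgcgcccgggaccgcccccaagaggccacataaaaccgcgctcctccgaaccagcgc
Dusp2: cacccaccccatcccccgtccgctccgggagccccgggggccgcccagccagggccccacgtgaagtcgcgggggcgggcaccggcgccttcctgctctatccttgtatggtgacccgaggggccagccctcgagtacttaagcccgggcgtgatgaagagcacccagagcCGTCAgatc
Dusp5: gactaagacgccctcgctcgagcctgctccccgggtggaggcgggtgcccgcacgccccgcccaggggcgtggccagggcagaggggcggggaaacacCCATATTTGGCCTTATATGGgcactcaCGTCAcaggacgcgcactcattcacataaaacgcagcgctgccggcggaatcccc
Dusp6: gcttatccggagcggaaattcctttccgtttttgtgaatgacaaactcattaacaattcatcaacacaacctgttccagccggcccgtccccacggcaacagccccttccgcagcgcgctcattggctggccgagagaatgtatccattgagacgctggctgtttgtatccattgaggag
The stretches lie on the plus strand at chr10:17184673-17184852 (Dusp1), chr3:135009456-135009635 (Dusp2), chr1:262543594-262543773 (Dusp5) and chr7:35979424-35979603 (Dusp6).

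Dusp1 held the full CRE, beginning 124 bases before the start, and a separate core at 172 bases. The full CRE was found in 1 of the 9 members, and in 1.7% of all 27457 promoters of that length. Dusp5 held a pair of adjoining CArG boxes at 82 and 72 bases and a core at 55 bases, and it was the 1 member with a CArG box, which 1.5% of all promoters held. Dusp2 held a single core 9 bases before its start, and Dusp6 held none of the motifs searched in this window. The core was present in 4 of the 9 members (Dusp1, Dusp2, Dusp5 and Dusp16) and in 19% of all promoters. The AP-1 site TGANTCA was in 0 of the 9 members and in 6.36% of all promoters. The EGR site GCGNGGGCG was in 4 of the 9 members (Dusp2, Dusp5, Dusp8 and Dusp16) and in 4.53% of all promoters. The GC box GGGCGG, which overlaps the EGR site in Dusp2 and in Dusp16, was in 6 of the 9 members and in 32.4% of all promoters. The E-box CACGTG was in Dusp1 and Dusp2, 2 of the 9, and in 5.79% of all promoters. The TATA box letters TATAAA were matched in Dusp14 alone, 1 of the 9, against 13.1%, with both strands searched for every motif. That match was on the opposite strand and reads TTTATA on the gene's strand. These are matches of letters, with no measurement of binding in these data.

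Total gene counts ran from 10838513 to 20532290 per library. Markers of spiny projection neurons, the main cell of the striatum, were detected for 10 of 10 genes in the list, and their summed level was 9103 to 16243 CPM in levodopa animals, 12697 to 16217 CPM at 7.5 mg/kg and 12029 to 15670 CPM at 15 mg/kg. CPM are counts scaled to the size of each library (TMM, a scaling that evens out library makeup). Levodopa replicate 2 stood apart with the lowest of these neuronal sums and the highest mitochondrial share of all libraries (17.3% of counts). It also had the highest endothelial sum of all libraries, 603 CPM, over 8 marker genes of which Cldn5 was at 0 in every library. The 7.5 mg/kg replicate 1 stood apart with the lowest total count and the highest cortical neuron sum, 75.3 CPM over 8 genes, against 17.0 to 58.8 CPM in all other libraries. Results are given with and without these libraries where they matter.

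**Figure D1:**
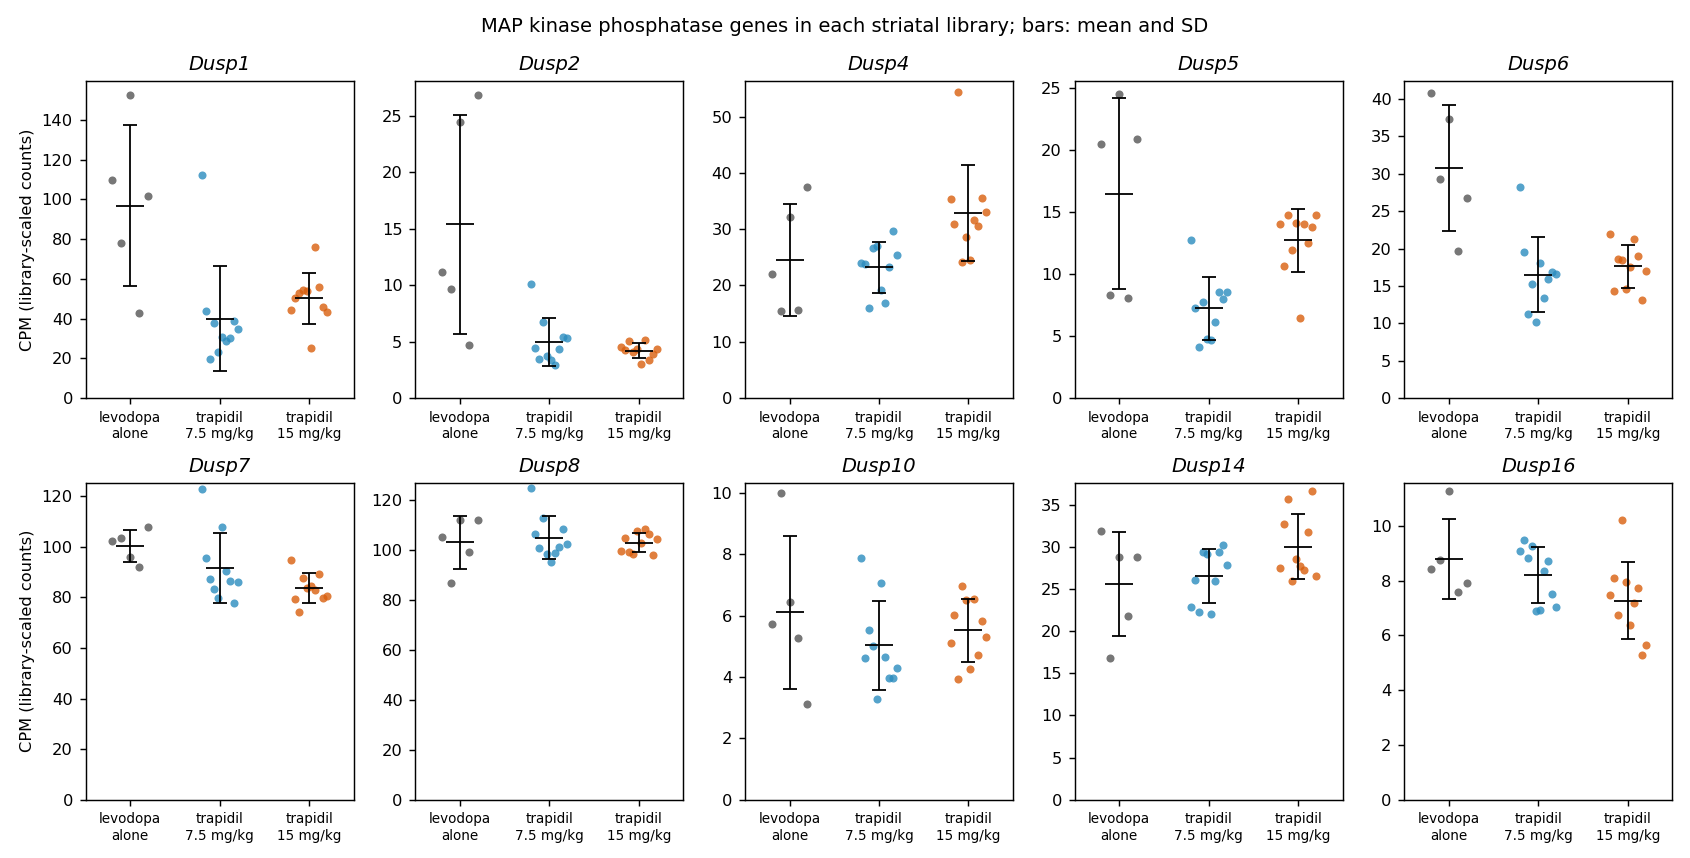
Library-scaled counts (CPM, y axis, starting at 0) of the 10 MAP kinase phosphatase genes in levodopa alone (5 animals), trapidil 7.5 mg/kg and trapidil 15 mg/kg (10 animals each). Each point is an animal, and the bars give the mean and SD. Dusp2 and Dusp6 lie lower in both trapidil arms, Dusp5 lies lowest at 7.5 mg/kg, and Dusp8 is level at about 103 to 105 CPM in all arms.

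Among the inducible nuclear enzymes, Dusp2 fell at both trapidil doses. Its level in the levodopa animals was 11.2, 9.69, 24.5, 4.70 and 26.9 CPM in replicates 1 to 5. In 7.5 mg/kg animals it ran from 2.94 to 10.1 CPM with a median of 4.37 CPM, and at 15 mg/kg from 2.97 to 5.14 CPM with a median of 4.30 CPM. Levodopa replicates 3 and 5 were the high animals, and replicate 4 lay inside the range of both trapidil arms, so the arms overlapped. Levodopa replicate 2 also lay inside the 7.5 mg/kg range. Dusp2 averaged 4.97 ± 2.13 CPM at 7.5 mg/kg (SD, n = 10) and 15.4 ± 9.73 CPM with levodopa (SD, n = 5). The log2 fold change was -1.65 ± 0.27 (SE) with an edgeR adjusted p of 0.013. The 15 mg/kg mean was 4.19 ± 0.658 CPM (SD, n = 10), and the log2 fold change against the same levodopa animals was -1.88 ± 0.27 (edgeR adjusted p = 0.000927). Relative to levodopa alone, Dusp2 fell by 68.1% at 7.5 mg/kg and fell by 72.8% at 15 mg/kg. The number of reads was small, 45 to 110 per library at 7.5 mg/kg, 55 to 88 at 15 mg/kg and 89 to 506 with levodopa. In whole tissue, fewer cells that express a gene and less RNA per cell cannot be told apart.

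Dusp6, which encodes the cytoplasmic phosphatase most selective for ERK and a standard readout of that kinase, also fell at both doses. In levodopa replicates 1 to 5 it stood at 40.9, 29.3, 37.3, 19.7 and 26.8 CPM. It ran from 10.1 to 28.2 CPM at 7.5 mg/kg (median 16.3 CPM) and from 13.2 to 22.0 CPM at 15 mg/kg (median 18.0 CPM). As for Dusp2, levodopa replicate 4 was the low animal of its arm and fell within both trapidil ranges, while the other levodopa animals all lay above the highest 15 mg/kg animal. Levodopa replicate 5 also lay within the 7.5 mg/kg range. Dusp6 averaged 16.5 ± 5.04 CPM at 7.5 mg/kg (SD, n = 10) and 30.8 ± 8.45 CPM with levodopa (SD, n = 5). That is -0.91 ± 0.17 as a log2 fold change (SE), with an edgeR adjusted p of 0.0428. Its mean at 15 mg/kg was 17.6 ± 2.90 CPM (SD, n = 10), and the log2 fold change was -0.81 ± 0.17 (edgeR adjusted p = 0.0217). All 10 libraries of each trapidil arm lay below the levodopa mean for both Dusp2 and Dusp6.

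Dusp2 and Dusp6 were 2 of 10 members called lower at 7.5 mg/kg, where 0.0283% of all tested genes were called lower (4 of 14142). They were also the 2 of 10 called lower at 15 mg/kg, where 1.00% of all genes were called lower (142 of 14142), 0.304% higher and 1.31% in either direction. The 142 became 19 without levodopa replicate 2, 8 without replicate 3, 515 without replicate 4 and 451 without the 7.5 mg/kg replicate 1. At both doses 0 of 10 members were called higher. Both comparisons use the same 5 levodopa animals. The median log2 fold change of the 10 members was -0.21 at 7.5 mg/kg and -0.27 at 15 mg/kg, with 8 of 10 negative each time. Over all genes the medians were 0.00368 and 0.000683, with 48.9% negative at 7.5 mg/kg and 49.8% at 15 mg/kg. At an unadjusted p below 0.05, 4 members were lower at 7.5 mg/kg (Dusp1, Dusp2, Dusp5 and Dusp6), where 6.64% of all genes were lower and 5.02% higher. At 15 mg/kg 5 were lower by that measure (Dusp1, Dusp2, Dusp6, Dusp7 and Dusp16) and 1 was higher (Dusp4), where 11.2% of all genes were lower and 8.26% higher. For 0 of 10 members did the ranges of a trapidil arm and the levodopa arm separate, where 0.0636% of all genes were separated and lower at 7.5 mg/kg and 0.410% at 15 mg/kg.

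Apart from that of Dusp2 at 15 mg/kg, the calls ended in some fits that left out 1 library. At 15 mg/kg Dusp2 was called in all 25 fits that left out 1 library, with log2 fold changes of -2.11 to -1.57, and the Dusp6 call ended without levodopa replicate 1 (-0.68), 2 (-0.82) or 3 (-0.73). The 7.5 mg/kg call of Dusp2 ended when levodopa replicate 3 (-1.42) or 5 (-1.34) was left out, and that of Dusp6 ended in 19 of the 25 fits. Those 19 left out levodopa replicate 1 (-0.78), 3 (-0.83) or 5 (-0.95), any 7.5 mg/kg animal except replicates 1 and 6 (-0.94 to -0.85) or any 15 mg/kg animal except replicates 7 and 10 (-0.91 in each). In the fits where leaving out a 15 mg/kg animal ended this call, the edgeR adjusted p was 0.0501 to 0.0617. It was 0.0428 with all 25 libraries. With only the 7.5 mg/kg and levodopa arms in the fit, both 7.5 mg/kg calls ended (edgeR adjusted p = 0.467 each).

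Dusp1, which encodes the broad nuclear phosphatase of p38, JNK and ERK, did not pass at either dose. It was at 110, 77.9, 153, 42.9 and 102 CPM in levodopa replicates 1 to 5. It ran from 19.6 to 112 CPM at 7.5 mg/kg (median 32.8 CPM) and from 25.3 to 75.9 CPM at 15 mg/kg (median 51.6 CPM). A single animal set the top of the 7.5 mg/kg range, replicate 1 at 112 CPM, and the other 9 animals of that arm were at 43.6 CPM or less. The log2 fold change was -1.29 ± 0.29 at 7.5 mg/kg (SE; edgeR adjusted p = 0.109), with 9 of 10 libraries below the levodopa mean, and -0.95 ± 0.29 at 15 mg/kg (edgeR adjusted p = 0.0751), with 10 of 10 below it. Without the 7.5 mg/kg replicate 1, which also narrowed the spread shared by all arms, Dusp1 was called lower at 7.5 mg/kg (-1.60 ± 0.21, edgeR adjusted p = 0.000254) and at 15 mg/kg (-0.95 ± 0.21, edgeR adjusted p = 0.0148). It was likewise called at both doses without levodopa replicate 4, at -1.48 ± 0.28 and -1.14 ± 0.28.

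Dusp5, which encodes a nuclear phosphatase specific for ERK, had its lowest values at 7.5 mg/kg. The levodopa animals fell into a high set of 20.4, 24.5 and 20.9 CPM (replicates 1, 3 and 5) and a low set of 8.33 and 8.07 CPM (replicates 2 and 4). In the 7.5 mg/kg arm Dusp5 ran from 4.15 to 12.7 CPM (median 7.46 CPM) and at 15 mg/kg from 6.44 to 14.8 CPM (median 13.9 CPM). The low levodopa animals thus lay within the 7.5 mg/kg range, and the high ones lay above every trapidil animal. Dusp5 averaged 7.25 ± 2.54 CPM at 7.5 mg/kg (SD, n = 10) and 16.4 ± 7.69 CPM with levodopa (SD, n = 5). Its log2 fold change of -1.20 ± 0.24 missed the threshold (SE; edgeR adjusted p = 0.0551), with 10 of 10 libraries below the levodopa mean. Its mean at 15 mg/kg was 12.7 ± 2.56 CPM (SD, n = 10), or -0.37 ± 0.24 on the log2 scale (edgeR adjusted p = 0.393). It was called lower at 7.5 mg/kg without levodopa replicate 2 (-1.36), levodopa replicate 4 (-1.37) or the 7.5 mg/kg replicate 1 (-1.31).

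Dusp4, an inducible nuclear phosphatase of ERK and JNK, was the inducible member that was not low with trapidil. It was at 22.1, 15.5, 32.2, 15.6 and 37.6 CPM in levodopa replicates 1 to 5. It ran from 16.1 to 29.7 CPM at 7.5 mg/kg (median 23.9 CPM) and from 24.3 to 54.3 CPM at 15 mg/kg (median 31.2 CPM). The 15 mg/kg values lay towards the upper end of the levodopa range, and 1 animal, 15 mg/kg replicate 3, lay above it. The log2 fold change was -0.08 ± 0.19 at 7.5 mg/kg (SE; edgeR adjusted p = 0.887) and 0.42 ± 0.19 at 15 mg/kg (edgeR adjusted p = 0.225).

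**Figure D2:**
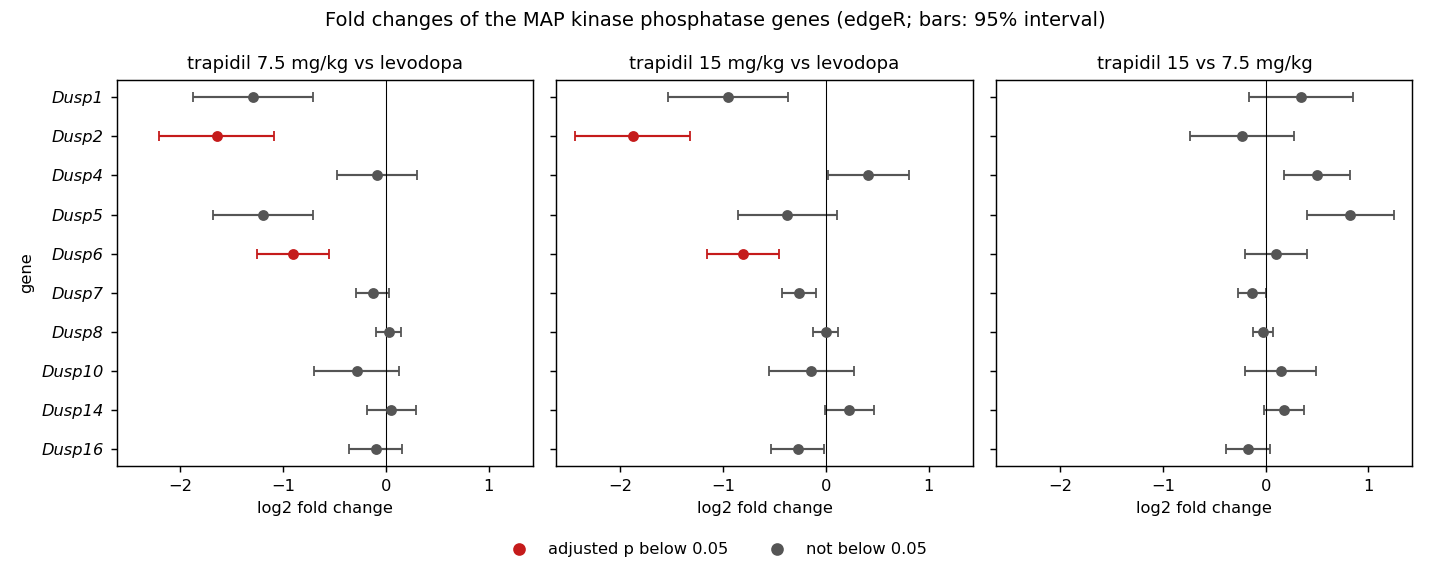
Log2 fold changes (x axis) of the 10 genes (y axis) in the 3 comparisons, from 1 edgeR fit to all 25 libraries. Points are estimates, bars 95% intervals, and red marks an adjusted p below 0.05, which Dusp2 and Dusp6 reached against levodopa at both doses and no gene reached between the doses.

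Between the doses 0 of 10 members passed with edgeR, DESeq2 or limma-voom, where edgeR called 0.0283% of all genes (4 of 14142, all higher at 15 mg/kg). The log2 difference was negative for 4 of 10 members, against 51.2% of all genes, with a median of 0.12. At an unadjusted p below 0.05, 2 members passed, Dusp5 and Dusp4, both higher at 15 mg/kg, where 1.49% of all genes were higher and 2.14% lower. Dusp5 averaged 12.7 CPM at the higher dose and 7.25 CPM at the lower, a log2 difference of 0.82 ± 0.20 (SE; edgeR unadjusted p = 0.0004, adjusted p = 0.46), which ranked 12 of 14142 genes by p. In 9 of 10 animals at 15 mg/kg it was at 10.7 CPM or more, and in 9 of 10 animals at 7.5 mg/kg it was at 8.56 CPM or less. The exceptions were 15 mg/kg replicate 6 at 6.44 CPM and 7.5 mg/kg replicate 1 at 12.7 CPM. With levodopa replicate 2 and the 7.5 mg/kg replicate 1 left out together, Dusp5 was called higher at 15 mg/kg (0.94 ± 0.18, edgeR adjusted p = 0.0315).

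Dusp4 averaged 32.9 ± 8.48 CPM with the higher dose of trapidil and 23.2 ± 4.50 CPM with the lower (SD, n = 10 for both), a log2 difference of 0.50 ± 0.16 (SE; edgeR unadjusted p = 0.00329, adjusted p = 0.999). All 10 animals at 15 mg/kg were above the 7.5 mg/kg mean, though the ranges overlapped. Without 15 mg/kg replicate 3, the animal at 54.3 CPM, the difference was 0.39 ± 0.14. Dusp1 differed by 0.34 ± 0.25 between the doses, and by 0.65 ± 0.19 without the 7.5 mg/kg replicate 1, which moved this value by more than any other library (edgeR adjusted p = 0.999 and 0.719). For the members called against levodopa, the 95% intervals of the difference between doses were -0.74 to 0.28 for Dusp2 and -0.20 to 0.40 for Dusp6.

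Dusp7, a cytoplasmic ERK phosphatase like Dusp6, differed little from arm to arm and varied little among animals. In levodopa replicates 1 to 5 it was at 102, 103, 96.0, 92.1 and 108 CPM. It ran from 77.9 to 123 CPM at 7.5 mg/kg (median 86.9 CPM) and from 74.4 to 94.8 CPM at 15 mg/kg (median 83.4 CPM). The 15 mg/kg and levodopa ranges overlapped only between 92.1 and 94.8 CPM. Dusp7 averaged 83.7 ± 5.78 CPM at 15 mg/kg (SD, n = 10) and 100.3 ± 6.22 CPM with levodopa (SD, n = 5). The log2 fold change of -0.26 ± 0.08 missed the threshold (SE; edgeR adjusted p = 0.0775), with 10 of 10 libraries below the levodopa mean. It was called lower at 15 mg/kg without levodopa replicate 4 (-0.29) or the 7.5 mg/kg replicate 1 (-0.26), and with DESeq2 (adjusted p = 0.0401). Its 7.5 mg/kg value was -0.13 ± 0.08.

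The phosphatases that prefer JNK and p38 gave 0 calls in the 3 comparisons. Dusp8 averaged 103 ± 10.5 CPM in the 5 levodopa animals, 105 ± 8.76 CPM in the 7.5 mg/kg animals and 103 ± 3.98 CPM in the 15 mg/kg animals (SD, n = 10 per dose). The 95% interval of its log2 fold change was -0.10 to 0.15 at 7.5 mg/kg and -0.12 to 0.12 at 15 mg/kg, the narrowest of the members. Dusp10 averaged 6.12 ± 2.49, 5.03 ± 1.44 and 5.52 ± 1.02 CPM in the same order of arms, with log2 fold changes of -0.28 ± 0.20 at 7.5 mg/kg and -0.14 ± 0.20 at 15 mg/kg, and its levodopa animals ran from 3.13 to 9.99 CPM. Dusp16 averaged 8.80 ± 1.46, 8.22 ± 1.02 and 7.27 ± 1.40 CPM, with log2 fold changes of -0.10 ± 0.13 and -0.27 ± 0.13. Dusp14 averaged 25.6 ± 6.19, 26.5 ± 3.19 and 30.1 ± 3.89 CPM, with log2 fold changes of 0.05 ± 0.12 and 0.23 ± 0.12. For these 4 genes the arms differed by less than, or about as much as, the SD within the levodopa arm.

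The order of the arms by mean level differed between members. Dusp2 had its highest mean with levodopa and its lowest at 15 mg/kg, and Dusp7 and Dusp16 had the same order. Dusp8 had its highest mean at 7.5 mg/kg. Dusp1, Dusp5, Dusp6 and Dusp10 had their highest mean with levodopa and their lowest at 7.5 mg/kg. Dusp4 had its highest mean at 15 mg/kg and its lowest at 7.5 mg/kg, and Dusp14 its highest at 15 mg/kg and its lowest with levodopa. For 0 of 10 members did the trapidil arms differ past the threshold.

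**Figure D3:**
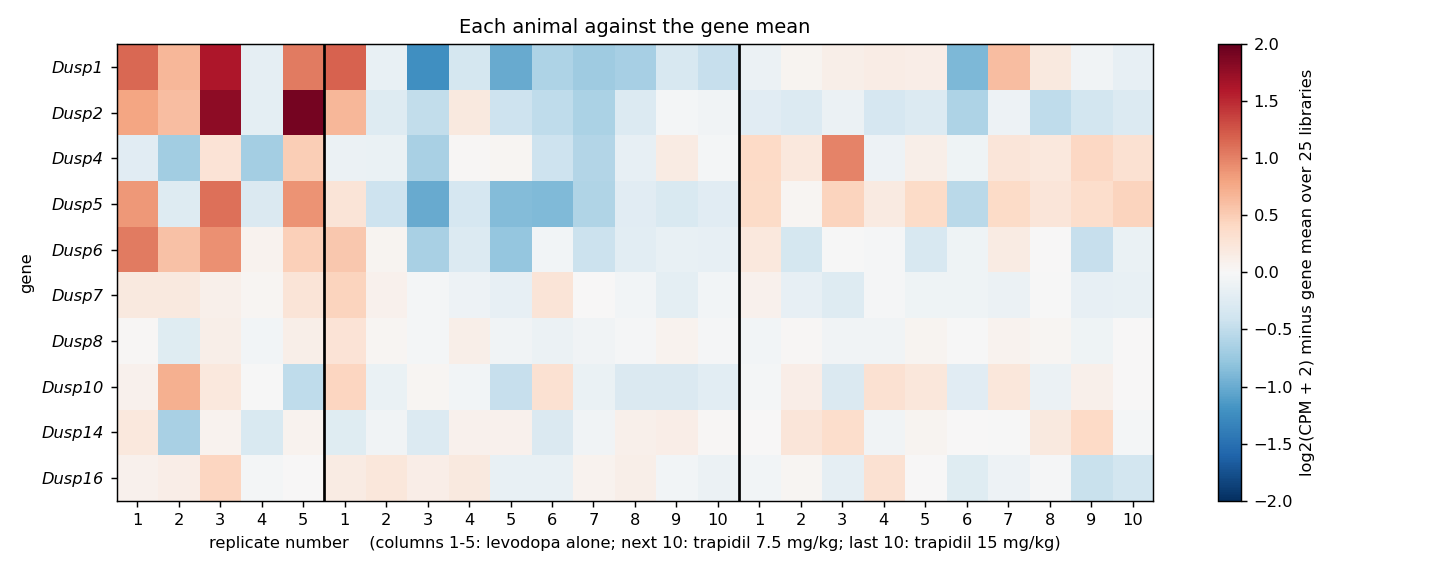
Log2(CPM + 2) of each of the 10 genes (rows) in each of the 25 animals (columns, by arm and replicate number), minus the gene's mean over all animals. Red is above and blue below that mean. Levodopa replicates 1, 3 and 5 and the 7.5 mg/kg replicate 1 are red for Dusp1, Dusp2, Dusp5 and Dusp6, and levodopa replicate 4 is close to the trapidil animals.

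The same animals were high or low for several members. Levodopa replicate 4 was the lowest of its arm for 6 of 10 members (Dusp1, Dusp2, Dusp5, Dusp6, Dusp7 and Dusp16), against 19.9% of all tested genes. The 7.5 mg/kg replicate 1 was the highest of its arm for 7 of 10 members (Dusp1, Dusp2, Dusp5, Dusp6, Dusp7, Dusp8 and Dusp10), against 25.6% of all genes. Levodopa replicate 3 was the highest of its arm for 4 of 10 (Dusp1, Dusp5, Dusp8 and Dusp16), against 12.4% of all genes. Levodopa replicate 5 and the 15 mg/kg replicate 7 were highest for 3 members each, against 14.2% and 7.32% of all genes. Replicate 6 of the 15 mg/kg arm was the lowest of its arm for Dusp1, Dusp2 and Dusp5, against 10.4% of all genes. Levodopa replicate 2, the 7.5 mg/kg replicates 3 and 5 and the 15 mg/kg replicate 9 were also lowest for 3 members each. Their shares of all genes were 32.7%, 7.15%, 7.06% and 5.96% in turn. The cortical marker sum was 24.8 CPM in levodopa replicate 4, 58.8 CPM in levodopa replicate 5, which had the highest Dusp2, and 18.9 CPM in levodopa replicate 3, which had the next highest. The part that tissue from outside the striatum has in the values of the 7.5 mg/kg replicate 1 was not tested.

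The spread among animals differed by arm and gene. The SD of log2 CPM was larger in the levodopa arm than at 15 mg/kg for 8 of 10 members, against 75.3% of all genes, and larger than at 7.5 mg/kg for 9 of 10, against 58% of all genes. For Dusp2 the coefficient of variation was 15.7% at 15 mg/kg and 63.3% with levodopa, and for Dusp5 it was 20.2% at 15 mg/kg and 46.8% with levodopa. It was larger at 7.5 mg/kg than with levodopa for Dusp1 (66.3% and 41.8%), Dusp6 (30.5% and 27.4%) and Dusp7 (15.1% and 6.20%). The edgeR fit used 1 spread per gene for all arms, so differences in spread between arms do not enter the errors. For Dusp2 the SD of log2 CPM was 0.878 in the 5 levodopa animals, 0.388 at 7.5 mg/kg and 0.158 at 15 mg/kg. Where the smaller arm varies most, as here, a shared spread can make the SE and p against levodopa too small.

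The genes whose pattern among animals was most like that of a called member were sought by Pearson's r of log2 CPM over 25 animals, after each arm's mean was subtracted, among 12233 genes. They were picked for a high r, so no p is given. For Dusp2 the 5 nearest were Jun (r = 0.85, Spearman's rho = 0.64), Ppp1r15a (0.84, 0.67), Ier5 (0.80, 0.66), Dusp5 (0.80, 0.76) and Trib1 (0.78, 0.70). Without the 2 animals farthest from the Dusp2 median, levodopa replicates 4 and 5, r was 0.76, 0.75, 0.68, 0.78 and 0.80 for these genes in turn. For Dusp6 they were Btg2 (r = 0.84, rho = 0.77), Arc (0.81, 0.70), Fos (0.80, 0.73), Dusp1 (0.77, 0.67) and Sik1 (0.76, 0.63). Without the 7.5 mg/kg replicates 1 and 5, r was 0.76, 0.73, 0.70, 0.64 and 0.63. Of these 10 nearest genes, Sik1, a kinase gene induced by cAMP signalling, was unlike Dusp6. Its log2 fold change was -0.40 ± 0.13 at 7.5 mg/kg and 0.0002 ± 0.13 at 15 mg/kg. The others were all negative at both doses, among them Arc (-1.34 and -1.35) and Fos (-1.43 and -1.32). The animals share depth and tissue makeup, which such an r includes.

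The enzymes on which these phosphatases act gave 0 calls. Of 13 MAP kinase genes, 11 were tested and 0 passed in any comparison. Nearest at 7.5 mg/kg was Mapk11, a p38 gene, at 0.30 ± 0.12. Of 7 MAP kinase kinase genes 6 were tested and 0 passed, with Map2k4, an activator of JNK, nearest at 15 mg/kg (0.27 ± 0.11) and Map2k6 at 7.5 mg/kg (0.14 ± 0.07). Of 14 tested genes for Ras, Raf and their activators, 1 was called: Rasgrp3, an exchange factor for Ras and Rap, fell by 0.41 ± 0.10 at 15 mg/kg (25.3 ± 2.88 CPM at 15 mg/kg and 33.7 ± 7.61 CPM with levodopa, edgeR adjusted p = 0.0457). It was at -0.39 ± 0.10 at 7.5 mg/kg (edgeR adjusted p = 0.154). Of 11 kinases that MAP kinases activate 0 passed, with Rps6ka1 nearest at both doses (-0.37 ± 0.16 at 7.5 mg/kg and -0.57 ± 0.16 at 15 mg/kg).

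Other phosphatases of the same kinases were not called either. Of 9 such genes, 7 were tested and 0 passed. Dusp3, a small phosphatase of ERK and JNK, was nearest at 15 mg/kg (-0.20 ± 0.07, edgeR adjusted p = 0.125), and Ppp2cb, a catalytic subunit of protein phosphatase 2A, at 7.5 mg/kg (0.13 ± 0.05). Dusp9, the third cytoplasmic ERK phosphatase beside Dusp6 and Dusp7, had 0 to 2 reads in a library and was not tested. Among the remaining dual-specificity phosphatase genes, 10 of 14 were tested and 0 passed, with Dusp22, a JNK pathway phosphatase, nearest at 7.5 mg/kg (-0.34 ± 0.10) and at 15 mg/kg (-0.31 ± 0.10).

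The genes listed here as feedback and output of ERK gave no call. The list also held Nf1 and Rasa1, which act on Ras upstream of ERK. Immediate early genes such as Fos and Arc were not in it and are given separately below. Of 18 feedback and output genes, among them the Sprouty, Spred and Etv genes, 0 passed in any comparison, and the median log2 fold change was 0.03 at 7.5 mg/kg and 0.12 at 15 mg/kg. Etv5, a transcription factor downstream of ERK, came nearest at 15 mg/kg, at 79.0 ± 8.98 CPM against 63.6 ± 7.09 CPM with levodopa (0.31 ± 0.08, edgeR adjusted p = 0.0532). Ier3 was nearest at 7.5 mg/kg (-0.63 ± 0.19), and Phlda1 between the doses (0.38 ± 0.10). Whether the phosphatases differ from this list was not tested.

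Immediate early genes, transcribed within minutes of a stimulus, stood at a median of -0.63 (log2 fold change, 32 tested genes) at 7.5 mg/kg, 28 of them negative, and of -0.39 at 15 mg/kg, 25 of them negative. Over all genes 48.9% were negative at 7.5 mg/kg and 49.8% at 15 mg/kg. The lower dose called 2 of the 32 lower, Ppp1r15a and Btg2, where 0.0283% of all genes were called lower. At 15 mg/kg 6 of the 32 were called lower, where 1.00% of all genes were. Ppp1r15a, a stress-induced phosphatase subunit, had log2 fold changes of -0.96 ± 0.12 at 7.5 mg/kg and -0.95 ± 0.12 at 15 mg/kg. Btg2, a growth-inhibiting gene, had -1.33 ± 0.25 and -1.39 ± 0.25, and Jun, an AP-1 subunit, had -1.32 ± 0.22 at 15 mg/kg. With Dusp2 and Dusp6, Ppp1r15a and Btg2 made up all 4 genes called at 7.5 mg/kg. Fosb, another AP-1 subunit, was nearest between the doses, at 0.85 ± 0.17 (edgeR adjusted p = 0.0728), beside 0.82 ± 0.20 for Dusp5.

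Markers of other cells moved between the arms too. Oligodendrocyte markers were called lower at 15 mg/kg for 5 of 9 genes, with summed levels of 6358 to 13430 CPM at 15 mg/kg and 10437 to 19029 CPM with levodopa, where replicate 2 was the highest, and 0 of the 9 genes were at 0 counts. Endothelial markers were called lower for 1 of 7 tested genes, with sums of 217 to 296 CPM at 15 mg/kg and 307 to 603 CPM with levodopa. No call was made at 7.5 mg/kg in the oligodendrocyte or endothelial list, with sums of 7194 to 15824 CPM and 240 to 368 CPM. Markers of spiny projection neurons, astrocytes, microglia, pericytes and ependymal cells gave 0 calls in any comparison. The 7 tested ependymal genes had a median log2 fold change of 0.91 at 7.5 mg/kg and 1.41 at 15 mg/kg. All 8 astrocyte, 8 pericyte and smooth muscle and 7 tested endothelial genes were negative at both doses. Their medians were -0.15, -0.23 and -0.43 at 7.5 mg/kg and -0.17, -0.20 and -0.47 at 15 mg/kg. Of 7 microglia genes, 7 were negative at 7.5 mg/kg and 6 at 15 mg/kg (medians -0.18 and -0.26). Of 10 spiny projection neuron genes, 0 and 2 were negative (medians 0.03 and 0.07). Of 4 tested choroid plexus genes 1 was called lower at 15 mg/kg, Ttr, at 0.128 ± 0.190 CPM against 4.86 ± 10.4 CPM with levodopa. The other 3 were positive and the median of the 4 was 0.86. Levodopa replicate 2 had a choroid plexus sum of 28.4 CPM, and the other levodopa animals had 0.551 to 7.65 CPM. The part of these shifts in the phosphatase values was not tested.

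**Figure D4:**
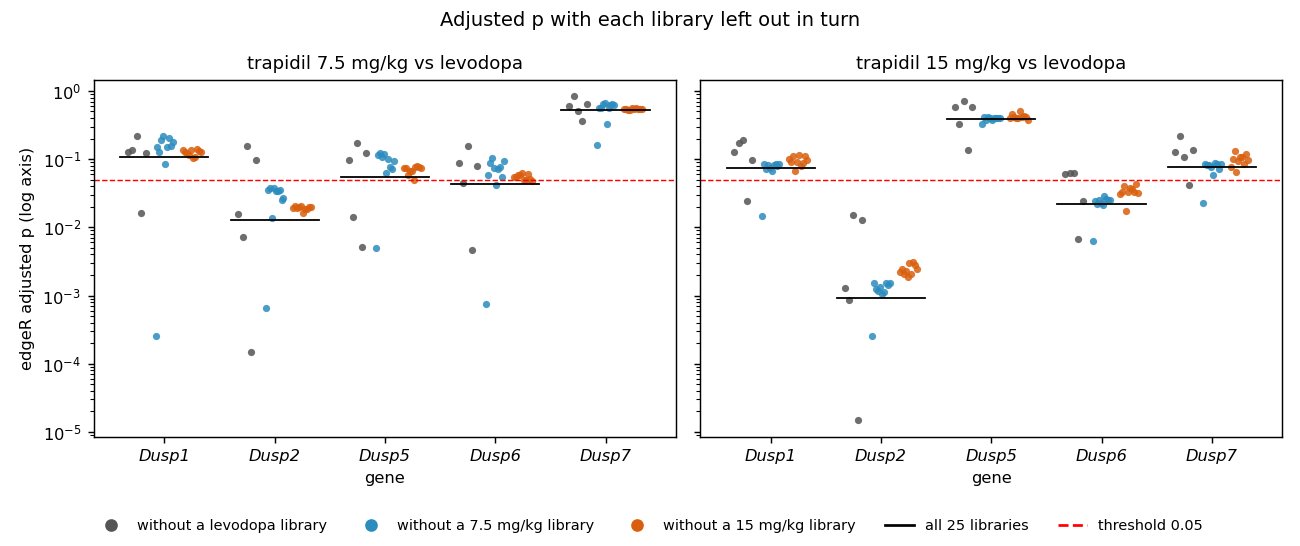
Adjusted p of edgeR (y axis, log scale) for 5 of the genes against levodopa at 7.5 mg/kg (left) and 15 mg/kg (right), each point being a fit without 1 library, coloured by the arm it came from. Black lines give the fit to all 25 libraries and the red dashed line the threshold of 0.05. Dusp2 stays below the line in all fits at 15 mg/kg, and Dusp1 crosses it without levodopa replicate 4 or without the 7.5 mg/kg replicate 1.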

How the data were processed

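Striatal polyadenylated RNA of 25 rats was sequenced, 1 library per animal. The authors deposited 1 table of raw counts of reads per gene, not normalized. The submitters' processing notes name FastQC, STAR, HTSeq and the Rnor_6.0 build. Their versions, the annotation and the strand setting are not given in the sources used here, so reads of a gene and of an overlapping or antisense partner cannot be separated. Arms were read from the labels. The series text has the lesioned rats split at random into the arms, so each library was taken as 1 animal. No batch is named.

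Genes were kept by filterByExpr (14142 of 28909), scaled by TMM and tested with the quasi-likelihood test of edgeR 4.0.16 (R 4.3.3) on all 25 libraries with arm as the factor. P-values were two-sided, adjusted by Benjamini-Hochberg across the 14142 genes and called below 0.05. Every adjusted p is from that fit unless another tool or setting, or a library or arm left out, is named. A standard error is the log2 fold change divided by the root of its F statistic. A pseudocount of 2 CPM was used for log2 CPM. Alternatives used DESeq2 1.42.0 and limma 3.58.1 and are given at the end. The steps were tested on simulated data. The members and gene lists were chosen with earlier results of these data known. The text names all members, per list up to 3 called genes or else the gene with the smallest p, and 5 genes most like each member called at 15 mg/kg. The result of 1 gene that this rule names is not reported here. Arms' replicates were no duplicates: within an arm, no pair of libraries had a chi-square per degree of freedom under 4.83, over genes with at least 20 reads.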

Additional observations from a re-analysis of the deposited data

Results flagged for a closer look

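An animal stood far from the rest of its arm in 6 of 30 sets of values (10 genes in 3 arms). Chance flags about 1 in 20 independent sets, but these sets share animals and several members varied together within arms (Dusp1 with Dusp5, r = 0.81), so the 6 are not independent. The 7.5 mg/kg replicate 1 gave 4 of them. It was at 112 CPM for Dusp1, the next animal being at 43.6 CPM, at 10.1 CPM for Dusp2 (next 6.75 CPM), at 12.7 CPM for Dusp5 (next 8.56 CPM) and at 28.2 CPM for Dusp6 (next 19.5 CPM). This library also had the lowest total count and the highest cortical marker sum. The 15 mg/kg replicate 3 was at 54.3 CPM for Dusp4, the next being at 35.5 CPM. Replicate 6 of that arm was at 6.44 CPM for Dusp5, below the next lowest at 10.7 CPM.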

How the results depend on the processing

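Dusp2 and Dusp6 kept a negative log2 fold change against levodopa at both doses under every alternative run, and the count of members called moved. The count at 7.5 mg/kg, 2 in the main analysis, was 0 when the third arm was dropped and 0 with the replicate block. It was 4 with DESeq2, 4 with limma-voom and 4 with levodopa replicate 2 and the 7.5 mg/kg replicate 1 left out together, Dusp1 and Dusp5 being added each time. It was 0 to 4 when each library was left out in turn. The count at 15 mg/kg, also 2, was 4 at a threshold of 0.10, 4 with only the 2 arms in the fit, 4 with limma-voom (Dusp1 and Dusp7 added) and 0 with the replicate block, and 1 to 4 with each library left out. At the threshold of 0.10, 590 of 14142 genes were called lower and 272 higher at 15 mg/kg, 6.1% in either direction. Between the doses the count of members, 0, became 1 (Dusp5) with the 2 libraries left out together and stayed 0 with each library left out. Over all genes, the 142 lower and 43 higher calls at 15 mg/kg became 434 and 221 with DESeq2, 417 and 298 with limma-voom, 322 and 126 when the third arm was dropped, 57 and 19 with the 2 libraries left out together, and 0 and 0 with the block. They became 95 and 32, 19 and 1, 8 and 1, 515 and 379, and 159 and 41 without levodopa replicates 1 to 5 in turn, and 451 and 188 without the 7.5 mg/kg replicate 1. At 7.5 mg/kg the 4 lower and 0 higher became 45 and 8 with DESeq2, 83 and 19 with limma-voom, 1 and 0 without levodopa replicate 3 or 5, 27 and 6 without replicate 4, 55 and 15 without the 7.5 mg/kg replicate 1, and 0 and 0 with the block. The cause of these moves was not tested. Whether the replicate numbers pair the animals is not known. Same-numbered pairs correlated above 0.1 for 3 of 5, 2 of 5 and 3 of 10 (15 mg/kg and levodopa, 7.5 mg/kg and levodopa, 15 and 7.5 mg/kg). The same-numbered animal was the closest match in 0 of 5, 0 of 5 and 1 of 10, in that order. With the replicate numbers as a block Dusp2 was at -1.40 and -1.63 and Dusp6 at -0.90 and -0.79 at 7.5 and 15 mg/kg. Every call of a member ended with the block.

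Signs that turned were all of uncalled values near 0. For Dusp8 at 15 mg/kg they were 0.00158 without a filter, 2.92e-05 when the third arm was dropped, 0.0208 with the block and -0.0539 to 0.0333 with each library left out. For Dusp8 at 7.5 mg/kg they were -0.0577 with limma-voom, -0.0570 with the 2 libraries left out and -0.0271 to 0.0595 with each left out, and between the doses 0.00305 with the 2 left out and -0.0406 to 0.00346 with each. Dusp10 at 15 mg/kg was 0.12 with limma-voom, 0.109 with the 2 libraries left out and -0.305 to 0.108 with each. At 7.5 mg/kg Dusp4 was 0.0320 with the block and -0.212 to 0.124 with each left out, Dusp14 was -0.0443 with the 2 libraries left out and -0.0646 to 0.143 with each, and Dusp16 was 0.0253 with the block and -0.146 to 0.00691 with each. Depth limits the low members, such as Dusp2 at 45 to 506 and Dusp10 at 55 to 162 reads per library.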
